A study of Mus musculus with 12 samples.

Results

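The genes described here encode the machinery that carries newly made proteins into the endoplasmic reticulum (ER), cuts off their signal peptides and attaches their N-linked glycans. They were 31 genes taken by symbol out of the 21761 genes of the count table, and all 31 were among the 12026 genes with enough counts to test. By complex they were 5 genes of the signal recognition particle (Srp9, Srp14, Srp19, Srp68, Srp72), the 2 genes of its receptor (Srpr, Srprb), 7 of the Sec61 channel and its partners (Sec61a1, Sec61b, Sec61g, Sec62, Sec63, Tram1, Hspa13), 4 of the translocon-associated protein complex TRAP (Ssr1, Ssr2, Ssr3, Ssr4), 5 of signal peptidase (Spcs1, Spcs2, Spcs3, Sec11a, Sec11c) and 8 of oligosaccharyltransferase (Rpn1, Rpn2, Ddost, Dad1, Stt3a, Stt3b, Ostc, Krtcap2).

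RNA was sequenced from mouse splenic B cells (B220+ CD43-) that had been stained with a division dye (CFSE or CTV), placed in uMT hosts, which lack B cells of their own, and exposed to lipopolysaccharide (LPS) in the host. On day 3 the transferred cells were sorted by how often they had divided: 0 (Div0), 1 (Div1), 3 (Div3) or 5 times (Div5), or at least 8 times without the surface protein CD138 (Div8neg) or with it (Div8pos). CD138, the product of Sdc1, marks plasma cells. Each group was 2 libraries of 40000 cells, 1 from each of 2 hosts numbered 196 and 197, so that n = 2 per group and all 6 groups came from the same 2 animals. Every group shared the transfer and the LPS, Div0 included, and no group came from unchallenged hosts. The labels give female mice of 8 weeks and the strain B6.SJL-Ptprca Pepcb/BoyJ, while the design text names naive C57/BL6J mice as the donors. P-values rest on the spread between the 2 hosts and speak for no more animals than these.

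An mRNA for a secreted or membrane protein starts translation in the cytosol, where the signal recognition particle (SRP) binds the emerging signal sequence and slows elongation. The particle docks on its receptor at the ER membrane, and the ribosome is handed to the Sec61 channel, beside which TRAP and oligosaccharyltransferase (OST) sit. Signal peptidase cleaves the signal peptide, and OST moves a preassembled glycan from the lipid dolichol to asparagines of the growing chain. Plasma cells are known for a large rough ER and for the secretion of antibody, a glycoprotein whose chains all pass through this route.

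Libraries held 11551585 to 14975133 gene counts and 113723 to 683173 counts of ERCC spike-in RNA, which had been added in a fixed amount per sorted sample. Levels are given on 2 scales. CPM, a count per 1e6 counts of the library scaled by TMM, shows a gene relative to all others, and mRNAs per cell, the authors' length-corrected and spike-in-scaled values, allow genes to be compared with each other. The total of mRNAs per cell was 174042 and 152012 in Div8pos, against 96920.1 and 103647 in Div8neg. Sdc1, on whose protein the cells were sorted, had 313 and 298 CPM in Div8pos, against 3.60 and 6.01 CPM in Div8neg. Summed over 6 B cell markers, libraries held 1311 to 1319 CPM in Div8pos and 7218 to 7367 CPM in Div8neg. Over 7 plasma cell markers, which include Sdc1, the sums were 6139 to 6329.9 CPM in Div8pos and 1013 to 1186 CPM in Div8neg. Sums over markers of other cells were lower in Div8pos: T cell markers (6 genes) summed to 1.97 to 2.20 CPM against 11.4 to 11.6 CPM in Div8neg, NK cell markers (4) to 1.51 to 3.82 against 6.95 to 7.70, myeloid markers (7) to 10.1 to 11.5 against 124 to 162, erythroid markers (4) to 0.594 to 2.04 against 10.4 to 16.5, and stromal markers (4) to 18.1 to 20.4 against 168 to 181. Single genes made up most of 3 of these sums in Div8neg: Pecam1 had 175 and 161 CPM of the stromal sum, Itgam 105 and 135 CPM of the myeloid sum, and Lck 9.61 and 10.3 CPM of the T cell sum. Cd3g, Klrb1c and Col1a1 were at 0 counts in Div8pos. The part of other cells in the values below was not tested. In bulk RNA of sorted cells, fewer cells with a transcript and less of it per cell cannot be told apart.

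The genes of this route rose in 3 steps that grew in size. Between 0 and 3 divisions their counts stayed close to all other genes, 14 of 31 were called higher in Div5 against Div3 (14.2% of all genes tested were), 28 in Div8neg against Div5 (26.9%) and 30 in Div8pos against Div8neg (36.6%). Of the 31, 14 were called higher at each of the last 3 steps, another 14 at the last 2, and Srp14 and Tram1 in Div8pos against Div8neg but at neither step before it. Stt3b was called at none of these 3 steps. How many of all genes tested had the same patterns over the 3 steps was not counted. No member was called lower in any of the 6 comparisons. Each called member moved the same way in both hosts, but the calls rest on these same 2 hosts, so this is no separate support.

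**Figure D1:**
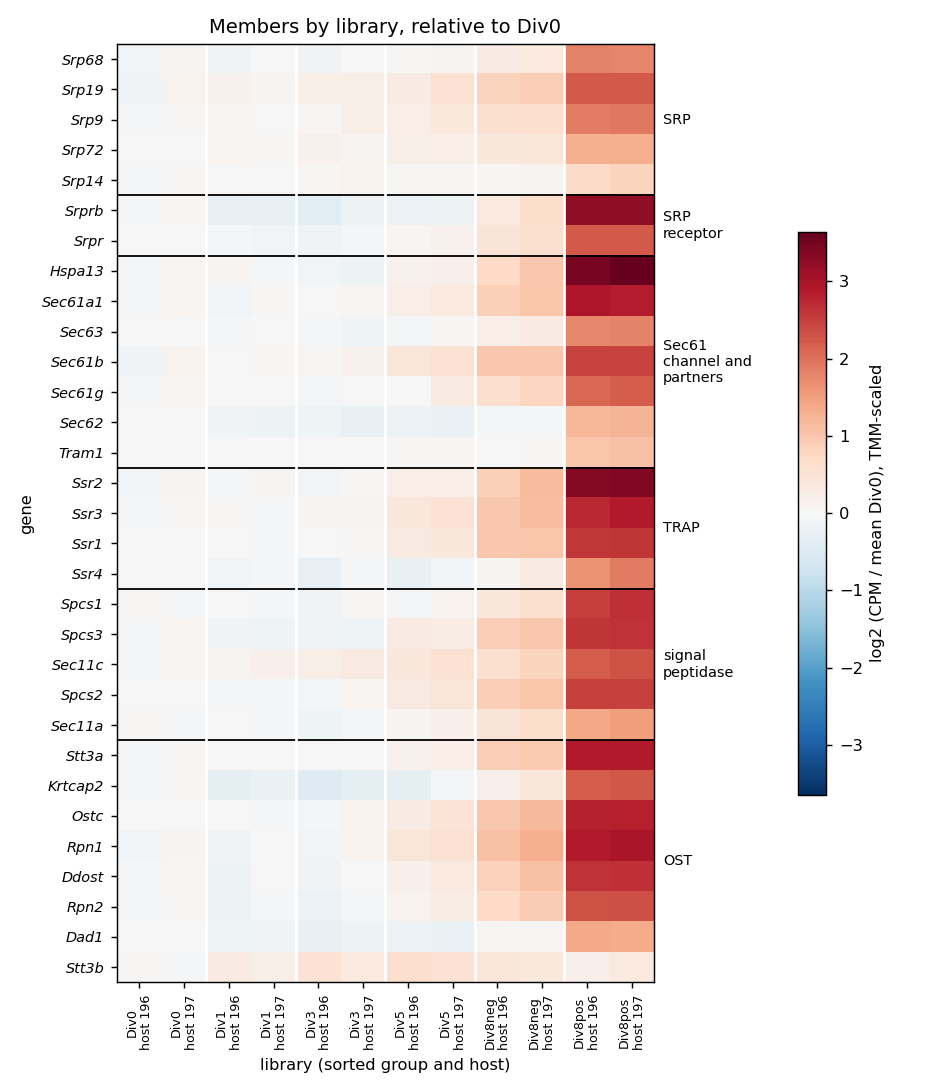
Level of each of the 31 genes (rows, grouped by complex) in each of the 12 libraries (columns, by sorted group and host), as log2 of TMM-scaled CPM over the mean of the 2 Div0 libraries. The Div8pos columns are the deepest red for every row except Stt3b, whose highest library is that of Div5 from host 196, at 576 CPM.

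In Div8pos against Div8neg, 30 of 31 members were higher and none lower (edgeR, adjusted p under 0.05), where 36.6% of all genes tested were higher and 35.4% lower. The median log2 fold change of the members was 1.55, against 0.01 over all genes tested. Among the called members the fold ran from 1.61 (Srp14) to 6.57 (Srprb), and their adjusted p-values lay between 2.07e-14 and 1.02e-07. Per cell, 30 members were higher and none lower (limma on log2 of mRNAs per cell plus 0.1), beside 52.1% of all genes higher and 16.3% lower, and the median log2 difference was 2.09 for members against 0.49 for all genes.

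Summed over the 31 genes, a Div8pos cell held 2703 ± 155 of these mRNAs and a Div8neg cell 611 ± 75.4 (SD, n = 2 each). The ratio within a host was 4.48 ± 0.807, and as a share of all mRNAs the members made up 1.66 ± 0.0634% in Div8pos and 0.608 ± 0.0463% in Div8neg. In order of division the earlier sums were 119 ± 19.8 at Div0, 199.6 ± 51.4 at Div1, 192 ± 35.6 at Div3 and 322 ± 8.50 at Div5. The share was flat at first, with 0.391% at Div0, 0.387% at Div1 and 0.394% at Div3, then 0.452% at Div5. The first gain per cell, at Div1, thus came with no gain in share. An exact permutation test of 2 libraries against 2 reaches no p under 0.333, and these sums were not tested.

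**Figure D2:**
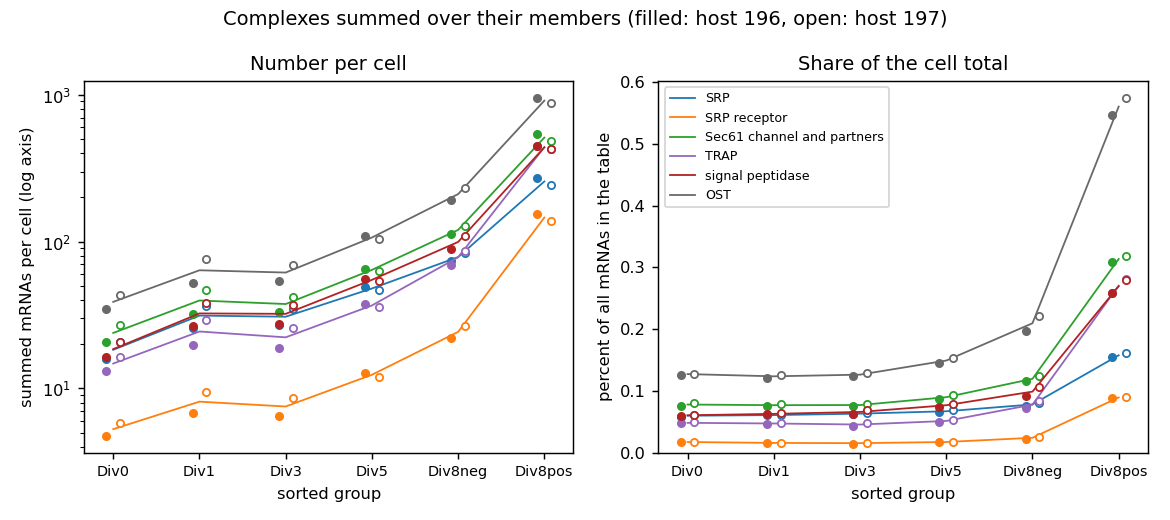
Summed mRNAs per cell of each complex (left, log axis) and the same sums as percent of all mRNAs in the table (right), for the 6 sorted groups. Points are libraries, filled for host 196 and open for host 197, and lines join the means. OST holds the largest sum in every group, 912 mRNAs per cell in Div8pos and 211 in Div8neg, and all 6 complexes stand highest in Div8pos.

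All 5 genes of SRP, the particle that recognises signal sequences, were higher in Div8pos than in Div8neg, and their median log2 fold change of 1.30 was the lowest of the 6 complexes. Srp68, a scaffold protein of the particle, had 376 ± 4.66 CPM in Div8pos and 138 ± 5.14 CPM in Div8neg, a log2 change of 1.45 (SE 0.07, adjusted p = 1.05e-11 by edgeR's quasi-likelihood test). Its binding partner Srp72 moved less. Srp72 had 166 and 172 CPM at Div0, 176 and 174 at Div1, 187 and 180.3 at Div3, 198 and 199 at Div5, 225 and 228 at Div8neg and 416 and 425 at Div8pos. Both Div8pos libraries stood above every other library, and the log2 change over Div8neg was 0.89 (SE 0.05, adjusted p = 1.13e-10). Per cell the ratio of Srp72 to Srp68 was 0.712 ± 0.0197 in Div8pos and 1.05 ± 0.0279 in Div8neg.

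Srp9 and Srp14 form the dimer that slows the ribosome. Srp14 had 48.6 and 52.3 CPM at Div0, 50.9 and 51.2 at Div1, 52.9 and 55.6 at Div3, 51.7 and 53.3 at Div5, 52.0 and 53.9 at Div8neg and 82.1 and 88.4 at Div8pos. In CPM it held nearly one level through all CD138-negative groups and stood higher in Div8pos (log2 change 0.69, SE 0.06, adjusted p = 1.02e-07). Per cell Srp14 differed among those groups as well, with means of 5.18 mRNAs at Div0, 8.79 at Div1, 8.76 at Div3, 12.3 at Div5, 17.3 at Div8neg and 40.7 at Div8pos, and it was called higher per cell in Div1 against Div0 (limma, adjusted p = 0.00490). Srp9 reached 209 ± 6.23 CPM in Div8pos, against 84.6 ± 1.40 CPM in Div8neg (log2 change 1.30). The ratio of Srp9 to Srp14 per cell was 1.40 ± 0.0321 in Div8pos and 0.909 ± 0.00838 in Div8neg, and it was 0.636 ± 0.00962 at Div0. Srp19, which helps assemble the particle on its RNA, had 172 ± 0.954 CPM in Div8pos and 65.5 ± 2.43 CPM in Div8neg.

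Both receptor genes rose in Div8pos against Div8neg, and their median log2 change of 2.22 was the highest of the 6 complexes. Srprb encodes the membrane-anchored beta subunit, a GTPase. Its counts were 48.0 and 52.3 CPM at Div0, 40.5 and 41.3 at Div1, 38.3 and 43.9 at Div3, 43.2 and 43.8 at Div5, 64.7 and 78.5 at Div8neg and 469 and 471 at Div8pos. The step with CD138 was the largest of all 31 genes, a log2 change of 2.72 (SE 0.08, 6.57-fold, adjusted p = 6.27e-14), and 98.4% of all genes tested had a lower one. Per cell Srprb was at 61.6 and 55.0 mRNAs in Div8pos, against 5.26 and 6.94 in Div8neg. Srpr, the alpha subunit that meets the particle, had 680 ± 1.38 CPM in Div8pos and 206 ± 9.52 CPM in Div8neg (log2 change 1.72). The ratio of Srprb to Srpr per cell was 0.667 ± 0.000903 in Div8pos and 0.335 ± 0.0304 in Div8neg, and it lay between 0.271 and 0.338 from Div0 to Div5. In GENCODE, exons of Srprb share bases with Gm20425 on the same strand, and how reads on shared bases were assigned is not stated.

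The Sec61 channel genes and their partners were all 7 higher in Div8pos than in Div8neg, with a median log2 change of 1.47. Sec61a1, the pore-forming subunit, had 1591 ± 54.8 CPM in Div8pos and 407 ± 31.5 CPM in Div8neg (log2 change 1.97, SE 0.07, adjusted p = 4.70e-13). The small subunits gained less. Sec61b had 45.9 and 55.2 CPM at Div0, 49.7 and 52.8 at Div1, 51.6 and 56.0 at Div3, 68.7 and 74.5 at Div5, 100.2 and 99.8 at Div8neg and 276 and 278 at Div8pos. Each late group stood clear of the one before it, and the change with CD138 was 1.47 on the log2 scale. Per cell the ratio of Sec61b to Sec61a1 was 1.50 ± 0.0617 in Div8pos and 2.12 ± 0.171 in Div8neg, and that of Sec61g to Sec61a1 0.745 ± 0.0709 in Div8pos and 1.06 ± 0.00344 in Div8neg. In both ratios the pore gene gained on the small subunits, and the 2 groups did not overlap.

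Among the partners, Hspa13, an Hsp70-related ATPase of the microsomal lumen, had the second largest change. Hspa13 had 19.7 and 21.5 CPM at Div0, 22.0 and 19.8 at Div1, 19.2 and 18.2 at Div3, 23.1 and 23.3 at Div5, 34.1 and 40.9 at Div8neg and 225 and 258 at Div8pos. Its log2 change with CD138 was 2.69 (SE 0.09, 6.44-fold, adjusted p = 1.82e-13), and over the whole series, in Div8pos against Div0, it was the largest of the 31 at 3.55. It nonetheless stayed among the scarcest members, with 15.4 ± 0.196 mRNAs per cell in Div8pos and 1.65 ± 0.306 in Div8neg. Sec63, the J-domain partner that engages the lumenal chaperone BiP, had a log2 change of 1.50, and Sec62, its membrane partner, one of 1.28. Tram1, which contacts the chain as it enters the channel, had 352 ± 7.94 CPM in Div8pos and 174 ± 6.98 CPM in Div8neg (log2 change 1.02).

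TRAP sits beside the channel and helps certain signal sequences to open it. All 4 of its genes rose in Div8pos, with a median log2 change of 1.67. Ssr2, the beta subunit, had 66.1 and 75.3 CPM at Div0, 67.1 and 76.0 at Div1, 65.7 and 72.0 at Div3, 82.6 and 83.9 at Div5, 129.8 and 156 at Div8neg and 714 and 731 at Div8pos. Its 2 late steps were both among the largest of the 31: 0.78 in Div8neg against Div5 (SE 0.09, adjusted p = 3.22e-06) and 2.34 in Div8pos against Div8neg. Per cell Ssr2 was at 236 and 214 mRNAs in Div8pos, against 26.5 and 34.6 in Div8neg, which placed it second of the 31 genes in Div8pos and seventh in Div8neg. Ssr1 (alpha) had 820 ± 4.63 CPM in Div8pos and 272 ± 1.12 CPM in Div8neg, Ssr3 (gamma) 834 ± 54.3 CPM in Div8pos and 247 ± 17.1 CPM in Div8neg, and Ssr4 (delta) 219 ± 25.7 CPM in Div8pos and 74.5 ± 7.61 CPM in Div8neg.

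Signal peptidase has 2 alternative catalytic subunits, Sec11a and Sec11c, and the accessory subunits Spcs1, Spcs2 and Spcs3. All 5 genes were higher in Div8pos than in Div8neg, with a median log2 change of 1.56. Sec11c had 94.7 and 105 CPM at Div0, 107 and 113 at Div1, 116 and 126 at Div3, 132 and 145 at Div5, 150.3 and 176 at Div8neg and 459.6 and 499 at Div8pos. Sec11a had 49.5 and 47.4 CPM at Div0, 49.1 and 47.3 at Div1, 43.8 and 46.4 at Div3, 51.9 and 55.0 at Div5, 67.2 and 74.9 at Div8neg and 129 and 139 at Div8pos. Both rose with CD138, Sec11c by 1.56 (SE 0.08, adjusted p = 4.25e-11) and Sec11a by 0.92 (SE 0.07, adjusted p = 4.26e-09) on the log2 scale. Sec11c was the most abundant of all 31 genes in each group, at 239 and 230.4 mRNAs per cell in Div8pos and 48.4 and 61.4 in Div8neg, while Sec11a was at 15.6 and 14.9 in Div8pos and 5.02 and 6.07 in Div8neg. Their ratio, Sec11c over Sec11a, was 15.4 ± 0.0946 in Div8pos and 9.88 ± 0.337 in Div8neg, and it lay between 8.88 and 11.5 from Div0 to Div5. Exons of Sec11a share bases with Nmb on the same strand.

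Among the accessory subunits, Spcs3, whose yeast counterpart is needed for cleavage, had 89.4 and 96.8 CPM at Div0, 85.8 and 83.6 at Div1, 84.7 and 83.4 at Div3, 117 and 113 at Div5, 172 and 183 at Div8neg and 572 and 580.2 at Div8pos. Its counts were level up to Div3 and then stood clear of the group before at each step. Spcs1 had 220.1 ± 15.9 CPM in Div8pos and 52.4 ± 4.37 CPM in Div8neg (log2 change 2.07), the fourth largest change of the 31 genes. Spcs2 had 534 ± 1.95 CPM in Div8pos and 183 ± 9.31 CPM in Div8neg.

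OST exists in 2 forms that differ in their catalytic subunit. The form with Stt3a is bound to the Sec61 channel through Ostc and Krtcap2 and glycosylates chains as they enter, and the form with Stt3b, which uses Magt1 or Tusc3 as a partner, reaches sites that the first one skipped. Rpn1, Rpn2, Ddost and Dad1 belong to both. In Div8pos against Div8neg, 7 of the 8 OST members rose and Stt3b did not, with a median log2 change of 1.71.

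Stt3a had 119.8 and 127 CPM at Div0, 125 and 123 at Div1, 122 and 121 at Div3, 139 and 147 at Div5, 231 and 238 at Div8neg and 924 and 911 at Div8pos. Stt3b had 386 and 369.5 CPM at Div0, 467 and 441 at Div1, 549 and 486 at Div3, 576 and 540.2 at Div5, 511 and 493 at Div8neg and 431 and 479 at Div8pos. Stt3a stood highest in Div8pos by far, whereas Stt3b stood highest at Div5 and both its Div8pos libraries lay below both Div8neg libraries. The log2 change with CD138 was 1.97 for Stt3a (SE 0.05, adjusted p = 2.07e-14) and -0.14 for Stt3b (SE 0.07, adjusted p = 0.0688). With the host as a block the adjusted p of Stt3b was 0.0337 at the same log2 change of -0.14, a call of lower. It also fell below the threshold with the 2 groups fitted alone (adjusted p = 0.0193) and without the Div8pos library of host 197 (adjusted p = 0.0299, log2 change -0.21). Per cell the sign was the other one, with 40.9 and 40.4 Stt3b mRNAs in Div8pos and 30.0 and 31.4 in Div8neg, a log2 difference of 0.40 that was not called (limma, adjusted p = 0.105). It was called higher per cell when the Div1 library of host 196 (adjusted p = 0.0407) or of host 197 (adjusted p = 0.0405) was left out of the fit. Stt3a per cell was at 137 and 120.2 mRNAs in Div8pos, against 21.2 and 23.7 in Div8neg.

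The order of the catalytic subunits thus differed between groups. Per cell the ratio of Stt3a to Stt3b was 3.17 ± 0.268 in Div8pos and 0.731 ± 0.0327 in Div8neg. In the groups before, it was 0.513 ± 0.0379 at Div0, 0.429 ± 0.0127 at Div1, 0.369 ± 0.0306 at Div3 and 0.402 ± 0.0351 at Div5. By abundance among the 31 genes Stt3b was at rank 2 or 3 from Div0 to Div5, at rank 6 in Div8neg and at rank 24 in Div8pos, while Stt3a was at rank 14 to 17 from Div0 to Div5 and at rank 8 in Div8pos.

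**Figure D3:**
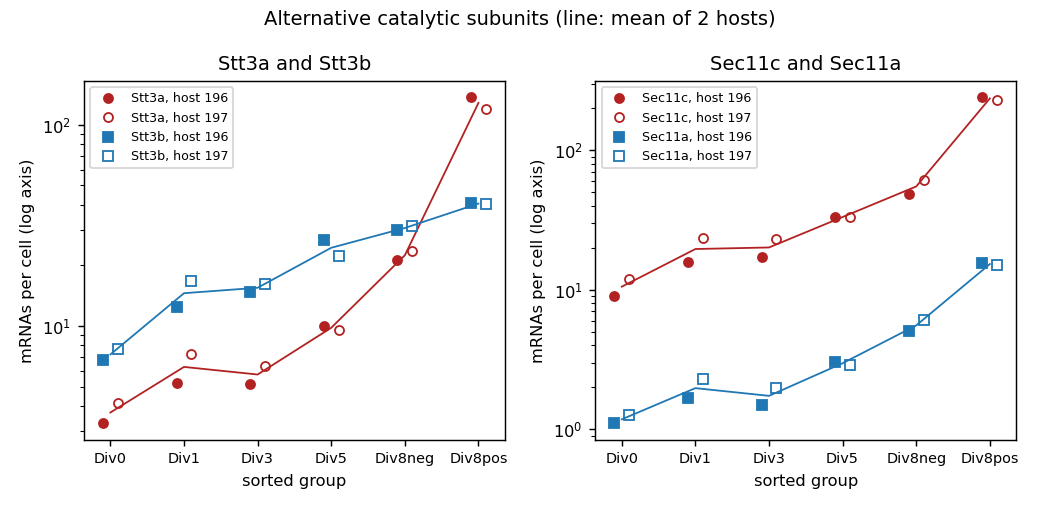
mRNAs per cell (log axis) of the alternative catalytic subunits of OST (left: Stt3a red circles, Stt3b blue squares) and of signal peptidase (right: Sec11c red circles, Sec11a blue squares) in the 6 sorted groups. Points are libraries, filled for host 196 and open for host 197, and lines join the means. The Stt3a line crosses the Stt3b line between Div8neg and Div8pos, at 129 against 40.6 mRNAs per cell in Div8pos, whereas Sec11c stays above Sec11a in all groups.

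The subunits of the Stt3a form rose with it. Krtcap2 had 40.4 and 42.9 CPM at Div0, 33.4 and 35.1 at Div1, 30.4 and 32.6 at Div3, 33.4 and 39.9 at Div5, 47.0 and 55.4 at Div8neg and 192 and 199 at Div8pos, with a log2 change of 1.93 over Div8neg. Ostc had 341 ± 7.01 CPM in Div8pos and 103 ± 9.79 CPM in Div8neg (log2 change 1.73). Rpn1, the shared subunit ribophorin I, had 178 and 208 CPM at Div0, 175 and 189.7 at Div1, 179.9 and 212 at Div3, 261 and 281 at Div5, 407 and 482 at Div8neg and 1436 and 1518 at Div8pos. It was level up to Div3 and stood clear of the group before at each later step, with a log2 change of 1.73 at the last (SE 0.09, adjusted p = 6.82e-11). The other shared subunits rose with CD138 as well, Ddost by 1.69, Rpn2 by 1.51 and Dad1 by 1.32 on the log2 scale. In the partners of the Stt3b form, Magt1 had 318 CPM in Div8pos and 148 CPM in Div8neg (log2 change 1.10, called higher), and Tusc3 had 16.9 CPM in Div8pos and 17.7 CPM in Div8neg (log2 change -0.07, adjusted p = 0.613).

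Promoter windows (250 bases before to 50 after the start site, RefSeq, GRCm38.p6) could be matched by gene ID for 22 of the 31 members. Windows of 4 are shown because the results turn on them: the catalytic subunits that parted, Stt3a and Stt3b, and Srprb and Spcs1, whose change with CD138 was the largest among members with a window. Each is written 5′ to 3′ on the strand of the gene. They lie at chr9:36767573-36767872 (Stt3a), chr9:115310419-115310718 (Stt3b), chr9:103202016-103202315 (Srprb) and chr14:31001617-31001916 (Spcs1), all on the minus strand. Capitals mark CCACG, read on either strand, so that CGTGG is a match on the other one.
Stt3a: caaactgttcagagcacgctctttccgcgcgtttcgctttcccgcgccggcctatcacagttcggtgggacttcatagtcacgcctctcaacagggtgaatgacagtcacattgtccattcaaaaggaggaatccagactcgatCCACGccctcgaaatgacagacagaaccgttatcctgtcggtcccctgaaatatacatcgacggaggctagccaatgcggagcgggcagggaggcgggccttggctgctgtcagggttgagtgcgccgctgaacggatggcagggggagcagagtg
Stt3b: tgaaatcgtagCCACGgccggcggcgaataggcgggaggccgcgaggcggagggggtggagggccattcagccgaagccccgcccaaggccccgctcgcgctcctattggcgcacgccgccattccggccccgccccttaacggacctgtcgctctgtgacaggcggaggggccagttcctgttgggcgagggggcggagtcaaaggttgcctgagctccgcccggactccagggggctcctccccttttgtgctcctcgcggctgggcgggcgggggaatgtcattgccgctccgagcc
Srprb: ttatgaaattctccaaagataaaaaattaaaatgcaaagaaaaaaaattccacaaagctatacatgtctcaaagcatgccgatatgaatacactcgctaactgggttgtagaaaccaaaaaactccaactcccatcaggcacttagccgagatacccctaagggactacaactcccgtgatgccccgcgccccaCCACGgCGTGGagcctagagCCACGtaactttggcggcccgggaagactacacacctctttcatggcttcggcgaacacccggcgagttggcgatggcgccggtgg
Spcs1: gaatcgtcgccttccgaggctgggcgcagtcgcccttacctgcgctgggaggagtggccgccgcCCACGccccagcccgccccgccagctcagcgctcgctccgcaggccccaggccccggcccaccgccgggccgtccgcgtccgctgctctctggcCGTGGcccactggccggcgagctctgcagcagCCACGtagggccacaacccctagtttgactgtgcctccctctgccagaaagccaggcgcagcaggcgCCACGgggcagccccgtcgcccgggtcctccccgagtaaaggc
CCACG is the 3′ part of the ER stress response element (ERSE, which reads CCAAT, then 9 bases of any kind, then CCACG), known to be bound by ATF6 and XBP1 in the response to unfolded proteins. It matched once in the Stt3a window and once in that of Stt3b, 3 times in Srprb and 4 times in Spcs1. Of the 22 members 15 held it (68.2%), as did 51.9% of the 9601 tested genes with a window and 35.5% of all 27025 genes with one. The full ERSE was in none of the 22 and in 0.187% of the tested genes. The unfolded protein response element in the form TGACGTGG, whose last 5 bases are CCACG on the other strand, was in none of the 22 and in 1.03% of the tested genes. Xbp1 itself had 1570.1 and 1529 CPM in Div8pos, against 246 and 287 CPM in Div8neg. Whether XBP1 or ATF6 bound these windows, or changed the level of any member, was not tested.

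Members were also higher in CD138-negative cells of later divisions. Marker sums differed too, not all in the same direction. Myeloid markers summed to 41.2 to 72.7 CPM at Div3, 75.8 to 115 at Div5 and 124 to 162 at Div8neg, there mostly Itgam. Erythroid markers summed to 6.68 to 9.99 CPM at Div3 and 10.4 to 16.5 at Div8neg. T cell markers summed to 49.5 to 49.9 CPM at Div3 and 11.4 to 11.6 at Div8neg. For NK cell markers the sums were 11.9 to 13.9 and 6.95 to 7.70 CPM, and for stromal markers 299.6 to 300.7 and 168 to 181 CPM. Plasma cell markers summed to 469.9 to 515 CPM at Div3, 583 to 673 at Div5 and 1013 to 1186 at Div8neg. B cell markers summed to 10344 to 10919 CPM at Div3, 10386 to 10433 at Div5 and 7218 to 7367 at Div8neg. Their part in the results was not tested. In Div8neg against Div5, 28 of 31 members were higher and none lower, where 26.9% of all genes tested were higher and 26.6% lower, and their median log2 change was 0.48 against 0.00 over all genes. The largest were Ssr2 (0.78), Srprb (0.72), Stt3a (0.71) and Rpn1 (0.71), and the called folds ran from 1.12 to 1.72. The 3 members not called were Srp14 (0.01), Tram1 (-0.04) and Stt3b (-0.15, adjusted p = 0.0636). With the host as a block Stt3b was called lower at this step too (adjusted p = 0.0273), as it was by DESeq2 (0.0435) and in edgeR with the size factors of DESeq2 (0.0463), with no filter on low counts (0.0212) or with the 2 groups alone (0.00830). Per cell the sign was again the other one, with a log2 difference of 0.33 that was not called (limma, adjusted p = 0.220). Per cell 28 members were higher and none lower beside 42.3% of all genes higher and 3.56% lower, and the median log2 difference was 0.96 against 0.41 for all genes. Fewer members were called per cell without the Div8neg library of host 197. That fit left a single library in the group, and its calls over all genes are not given.

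In Div5 against Div3, 14 of 31 members were higher and none lower, beside 14.2% of all genes higher and 12.4% lower, with a median log2 change of 0.22 against 0.00 for all genes. By complex these were 5 genes of OST, 3 of TRAP, 3 of signal peptidase, 2 of the Sec61 group, 1 of the SRP receptor and none of SRP. An unadjusted p under 0.05 was found for 3 of the 5 SRP genes and for 4580 of the 12026 genes tested. The largest were Rpn1 (0.47, adjusted p = 0.00212), Spcs3 (0.45, adjusted p = 9.61e-05) and Sec61b (0.41, adjusted p = 0.00168). The count of members called was lower without the Div3 library of host 196 or the Div5 library of host 197. With the host as a block it was 20. Leaving out a library left a single one in its group, and calls over all genes under these settings are not given. These shifts therefore do not speak of the members alone. Per cell 30 members were higher and none lower beside 42.7% of all genes higher and 0.416% lower (median log2 difference 0.75 against 0.47). The count per cell was also lower without the Div3 library of host 196 or without either Div5 library, with the same limit.

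Up to Div3 no such shift was seen in relative counts. In Div1 against Div0, 1 of 31 members was higher and none lower, beside 5.44% of all genes higher and 3.91% lower, and the median log2 change was -0.02 against -0.01 for all genes. The 1 called gene was Stt3b (0.26, SE 0.07, adjusted p = 0.0209), and the call was lost when either Div0 library, or the Div1 library from host 196, was left out. Srprb (-0.29, adjusted p = 0.0614) and Krtcap2 (-0.28, adjusted p = 0.0825) had the largest negative changes, and both were called lower with the host as a block (adjusted p = 0.0135 each), which gave 3 called members in place of 1. Their mean levels per cell did not move that way: Srprb was at 1.83 mRNAs per cell in Div1 and 1.34 in Div0, and Krtcap2 at 9.06 in Div1 and 6.55 in Div0. Per cell 29 members were higher and none lower, beside 77% of all genes higher and 0.133% lower, with a median log2 difference of 0.68 against 0.63 for all genes. That count was 1 when the Div0 library of host 196 was left out, and also 1 when the Div1 library of host 197 was.

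In Div3 against Div1 no member was called in either direction by edgeR, beside 1.9% of all genes higher and 1.51% lower. An unadjusted p under 0.05 was found for 1 member and for 1696 of the 12026 genes tested. DESeq2 called none either. The median log2 change was 0.01 against 0.00 for all genes, and the largest changes were Stt3b (0.19, adjusted p = 0.175), Hspa13 (-0.16, adjusted p = 0.611) and Sec11c (0.13, adjusted p = 0.53). Per cell no member was called beside 0.208% of all genes higher and 0.308% lower. On that scale no member had an unadjusted p under 0.05, beside 485 of the 12026 genes tested.

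Over the whole series, in Div8pos against Div0, all 31 members were higher, where 40.2% of all genes tested were higher and 42.2% lower. The median log2 change was 2.27 for members and -0.04 for all genes. Hspa13 (3.55, SE 0.09), Ssr2 (3.36, SE 0.09) and Srprb (3.23, SE 0.08) stood first and Stt3b last (0.27, SE 0.07, adjusted p = 0.00172). Per cell the 31 were higher beside 82.5% of all genes higher and 6.65% lower, with a median log2 difference of 4.48 against 1.84, and the summed members were 23.0 ± 5.11 times as many in Div8pos as in Div0.

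Genes that work next to these members were taken from 6 lists of 60 genes in all, of which 59 could be tested. In Div8pos against Div8neg 49 of the 59 were higher and 3 lower, beside 36.6% of all genes tested higher and 35.4% lower, and their median log2 change was 0.84 against 0.01 for all genes. Glycan trimming, the removal of glucose from newly attached glycans, was higher in 3 of 3: Mogs (glucosidase I, 1.56), Ganab (glucosidase II alpha, 1.26) and Prkcsh (glucosidase II beta, 0.91). The enzymes that build the dolichol-linked glycan were higher in 19 of 23 and lower in 1, led by Dhdds (1.61) and Alg2 (1.61), an early mannosyltransferase, and Alg5 (1.52), which makes dolichol-linked glucose, with Dpm2 lower (-0.22). The further OST subunits were higher in 3 of 4, Tmem258 (1.27), Magt1 (1.10) and Ost4 (0.98).

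Of the further SRP and channel genes 5 of 6 were higher. Tram2, a relative of Tram1, had 105 CPM in Div8pos and 11.9 CPM in Div8neg, a log2 change of 3.15 that exceeded that of every member. H13, signal peptide peptidase, changed by 2.19 and Sil1, the exchange factor of BiP, by 1.68, while Sec61a2, a second pore gene, had 13.1 CPM in Div8pos and 12.7 CPM in Div8neg and was not called. Srp54a (0.96) and Srp54b (0.89), which encode the signal-binding subunit, are near-identical copies whose counts may be divided between them. The multipass translocon, which inserts proteins with many membrane spans, was higher in 6 of 6, led by Nomo1 (1.66), Tmco1 (1.21) and Ncln (0.80). The genes for tail-anchor insertion and the ER membrane complex had the lowest median of the 6 lists (0.39), with 13 of 17 higher. They were led by Emc7 (1.76), Mmgt1 (1.32) and Emc4 (1.24), with Emc9 (-0.79) and Emc10 (-0.29) lower. Per cell the log2 difference was -0.18 for Emc9, 0.25 for Emc10 and 0.33 for Dpm2. In Div8neg against Div5 27 of the 59 were higher and 1 lower, beside 26.9% of all genes higher and 26.6% lower. In Div5 against Div3 11 were higher and 2 lower, beside 14.2% and 12.4% of all genes, so that the share of higher calls was near that of all genes. In Div1 against Div0 none was higher and 1 lower, beside 5.44% and 3.91% of all genes. In Div3 against Div1 none was called, beside 1.9% of all genes higher and 1.51% lower. There 3 of the 59 had an unadjusted p under 0.05, as did 1696 of the 12026 genes tested.

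**Figure D4:**
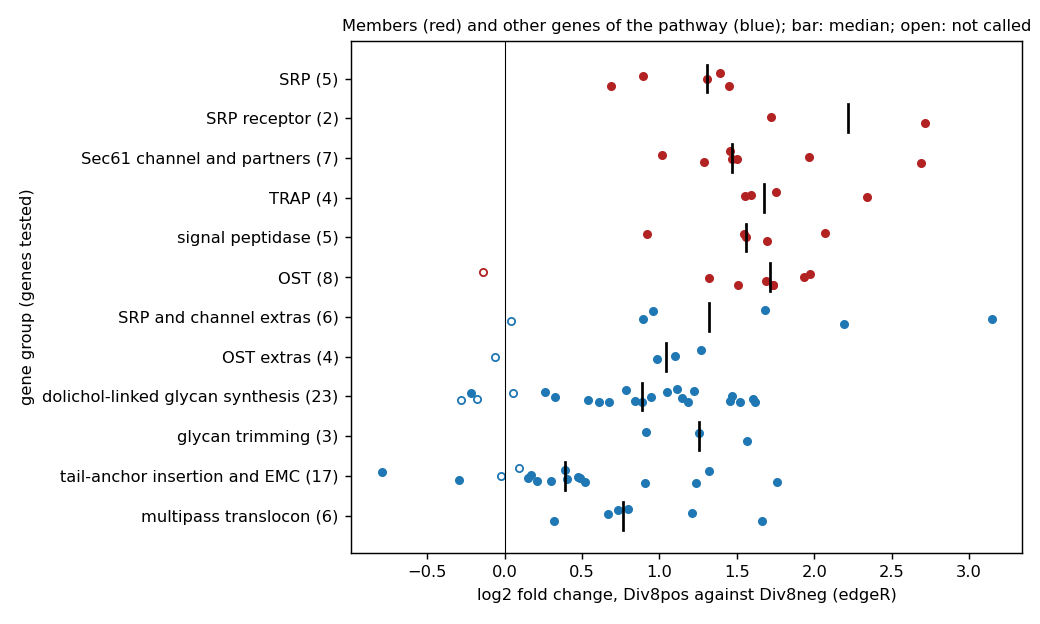
Log2 fold change in Div8pos against Div8neg (edgeR) of the 31 members by complex (red) and of 59 other genes of the route by list (blue), 1 point a gene, with the number of genes tested in brackets. Black bars are medians and open points were not called. All 6 member complexes have medians of 1.30 or more, and the lowest blue median is 0.39, for tail-anchor insertion and the ER membrane complex.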

How the data were processed

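RNA of 40000 sorted cells per library, with ERCC spike-ins, was made into stranded mRNA libraries (per the labels' protocols). The submitters' processing notes name Picard, R 3.2.2 and mm9, while which aligner and counter were used is not stated there. The deposited counts are reads over exons of UCSC mm9 KnownGenes, per the readme of the authors. Deposited RPM and FPKM are the authors' values per 1e6 reads and per exon length, and the exon length and the spike-in molecules per cell are numbers (scores) in the deposited tables. The deposited mRNAs per cell, entered here as a signal, are FPKM times 1 factor per library that the authors took from the spike-ins. RPM and FPKM were not tested. No column belonged to other samples.

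The test on counts was that of edgeR 4.0.16 (R 4.3.3), with TMM, filterByExpr, glmQLFit on all 12 libraries with group means, glmQLFTest, and Benjamini-Hochberg adjustment over the 12026 genes tested, called at an adjusted p under 0.05. Of 21761 rows, those with no symbol held 0.0498 to 0.0943% of counts and were left out. For values per cell, limma 3.58.1 with a trend was run after adding 0.1 and taking log2, a scale on which a fold understates the change of low genes. The edgeR test returns no SE, so the SE given is the absolute log2 change divided by the square root of the test's F statistic. CPM of members are scaled by TMM and marker sums are not. On simulated data (Div8pos against Div8neg, 12026 genes), edgeR recovered 46% of 1.5-fold, 82% of 2-fold, 100% of 4-fold and 94% of 8-fold changes, and limma 32%, 78%, 98% and 92% of the same, each with 10 calls among 11826 unchanged genes. These data had the same spread for every gene and no host effect, and the changed genes were drawn from all genes tested.

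Host 196 or 197 pairs the libraries, since all groups came from the same animals. Deviations from group means correlated between groups of a host at r of 0.0180 to 0.358 over the comparisons (across genes, which are not independent). Each library was left out in turn, and DESeq2 1.42.0, its size factors, spike-in library sizes, no filter, 2-group fits, a host block and pseudocounts of 0.01 and 1 were tried. All members were named, with values in every library for the 3 largest and 3 smallest changes in Div8pos against Div8neg, the 3 largest in size in the other comparisons and the catalytic pairs, and of the other lists up to 3 called genes in each direction. A few other genes (Sec61a2, Srp54a, Srp54b, Tusc3, Xbp1) were named after their values were seen. The members and lists were chosen with earlier results of these data known. Gene overlaps are from GENCODE M21, where 12 members also share exon bases with a gene on the opposite strand, and the strand setting of the counting is not given. Intervals were not computed, and PCR copies carry no molecular tags.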

Additional observations from a re-analysis of the deposited data

How the results depend on the processing

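The direction of all 252 called values of single members was kept in 4240 recomputations: 4004 stayed past the threshold, 236 did not, and 0 reversed. Many of these could not reverse. Leaving out a library of a group outside the comparison kept the log2 difference per cell as it was. So did the host block, since each host has a library in every group. The lack of reversals is therefore no separate support. In Div1 against Div0 the members called were 1, and became 3 with no filter on low counts (1 higher, 2 lower), 2 with the 2 groups fitted alone (1 higher, 1 lower), 3 with the replicate block of host (1 higher, 2 lower) and 29 with library sizes from spike-ins (29 higher), a scaling that put the median log2 change of all genes at 0.74, against 0.72 for the members. In Div3 against Div1 the count was 0, and 1 with no filter. In Div5 against Div3 it was 14, and 29 with spike-in library sizes, where the median was 0.53 for all genes and 0.75 for members. Per cell, 30 members were called in that comparison, and 0 with no filter on low values. Leaving out each library gave 0 to 2, 0 to 0, 6 to 16, 24 to 29, 30 to 31 and 31 to 31 members for the 6 comparisons in the order of division and then Div8pos against Div0. Per cell these ranges were 1 to 31, 0 to 0, 0 to 31, 17 to 30, 30 to 31 and 31 to 31. Where a count moved, the cause was not tested. The share of all genes called under the same settings is not given, so these counts do not speak of the members alone. The host block changed the calls of Stt3b in Div8pos against Div8neg and in Div8neg against Div5, of Srprb and Krtcap2 in Div1 against Div0, and of 6 members in Div5 against Div3 (20 called). Per cell it changed Srp14 in Div8neg against Div5 (adjusted p = 0.0491). It changed no other call of a member. With 2 hosts, the precision of small changes is limited. The simulation, which recovered 46% of 1.5-fold changes, does not measure that limit for the members. It gave every gene the same spread, held no host effect and no noise of the spike-ins, and drew its changed genes from all genes tested. In relative counts no member changed 1.5-fold in Div1 against Div0 or Div3 against Div1.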
